A study of Rattus norvegicus with 70 samples.

Results

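10 genes that mark the blood vessel lining, or signal to it, were followed through 3 fat depots of the rat. The 10 members were Pecam1, Cdh5, Kdr, Flt1, Tek, Tie1, Eng, Esam, Erg and Vegfa. They were taken by name, by matching rat symbols to the gene numbers of the deposited tables, and all 10 were present among the 15319 genes of each of the 6 tables. The depots were brown fat (BAT), the fat under the skin (SAT, subcutaneous) and the fat of the belly cavity (VAT, visceral), taken from 12 female and 12 male adolescent rats of the outbred Sprague-Dawley stock. The PCB 52 groups breathed PCB 52, a chlorinated biphenyl, through the nose for 4 h a day on 28 days, from air led over coated glass beads. The other groups are labelled sham, with no further description. Rats arrived at 28 days of age and entered the exposure at 39 days (males) or 42 days (females), so sex, starting age and deposited table cannot be told apart. Depot and deposited table cannot be told apart either. Of the 12 groups of sex, depot and treatment, 10 held 6 libraries. Female SAT sham held 5 libraries (numbers 2, 6, 8, 10 and 12), and male VAT PCB 52 held 5 (numbers 13, 15, 17, 19 and 23). The question was whether inhaled PCB 52 alters transcript levels in fat.

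Endothelial cells line the blood vessels and feed adipocytes with oxygen and fatty acids, and brown fat is known for a dense capillary bed. The ligand VEGF-A, encoded by Vegfa and made largely by cells other than the endothelium, acts through the receptor VEGFR2 (Kdr). VEGFR1 (Flt1) binds the same ligand tightly and can hold it away from Kdr. Angiopoietins signal through the receptor Tie2 (Tek), and Tie1 is its partner without a well-defined ligand of its own. Endoglin (Eng) is a co-receptor for BMP and TGF-beta ligands. VE-cadherin (Cdh5), PECAM-1 (Pecam1) and ESAM (Esam) sit at the junctions between endothelial cells, and Erg is an ETS-family transcription factor that keeps endothelial genes active. Pecam1 is also found on platelets and some leukocytes, and Tek on some blood-forming and perivascular cells.

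Promoter windows of 6 members, from 250 bases before to 50 after the gene start, were held in a RefSeq table of the rat assembly GRCr8, which is not the authors' build. Those shown belong to the ligand, its receptors Kdr and Flt1, Tie1 and Erg. Kdr and Flt1 were added after the values were seen, because their levels differed unequally between depots. Letters run 5′ to 3′ on the strand of the gene. Capitals mark matches, on either strand, to the ETS motifs CCGGAA or AGGAAG or to the GATA motif AGATAA.
Vegfa (chr9:22452604-22452903, + strand): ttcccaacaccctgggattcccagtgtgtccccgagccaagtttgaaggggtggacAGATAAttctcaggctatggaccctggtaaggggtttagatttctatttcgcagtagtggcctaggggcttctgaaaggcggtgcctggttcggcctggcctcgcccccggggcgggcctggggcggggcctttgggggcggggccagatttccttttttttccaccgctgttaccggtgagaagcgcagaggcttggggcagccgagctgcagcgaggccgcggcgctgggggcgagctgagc
Kdr (chr14:32571813-32572112, + strand): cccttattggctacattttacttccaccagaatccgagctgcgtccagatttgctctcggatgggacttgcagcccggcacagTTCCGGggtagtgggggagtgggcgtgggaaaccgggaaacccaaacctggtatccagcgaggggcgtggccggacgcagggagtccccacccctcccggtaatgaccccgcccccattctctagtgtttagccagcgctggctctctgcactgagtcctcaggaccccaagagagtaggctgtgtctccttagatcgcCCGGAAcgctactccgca
Flt1 (chr12:12333180-12333479, + strand): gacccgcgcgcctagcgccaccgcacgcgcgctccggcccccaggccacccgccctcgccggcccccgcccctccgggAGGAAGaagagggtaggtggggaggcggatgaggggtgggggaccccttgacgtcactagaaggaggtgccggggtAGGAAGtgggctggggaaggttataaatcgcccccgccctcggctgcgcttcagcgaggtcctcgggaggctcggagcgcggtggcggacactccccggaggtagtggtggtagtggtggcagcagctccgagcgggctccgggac
Tie1 (chr5:137304932-137305231, − strand): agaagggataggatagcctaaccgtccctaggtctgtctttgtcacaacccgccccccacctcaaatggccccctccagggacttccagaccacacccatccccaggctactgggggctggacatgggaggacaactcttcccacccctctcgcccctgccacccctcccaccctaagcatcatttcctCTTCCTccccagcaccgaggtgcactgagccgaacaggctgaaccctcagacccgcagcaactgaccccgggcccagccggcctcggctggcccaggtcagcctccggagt
Erg (chr11:48251517-48251816, − strand): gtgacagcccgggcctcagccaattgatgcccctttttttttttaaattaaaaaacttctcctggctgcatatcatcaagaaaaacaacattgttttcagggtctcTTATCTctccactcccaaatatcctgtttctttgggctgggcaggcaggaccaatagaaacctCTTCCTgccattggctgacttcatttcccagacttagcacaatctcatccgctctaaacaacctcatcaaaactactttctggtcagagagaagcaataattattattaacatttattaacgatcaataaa

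The Kdr window held 2 CCGGAA matches, at -167 and 33 from the gene start, and the Flt1 window held 2 AGGAAG matches, at -172 and -96. An AGGAAG match lay at -61 in Tie1 and another at -81 in Erg, which also had an AGATAA match at -144. The Vegfa window had an AGATAA match at -194 and neither ETS motif, and the hypoxia motif ACGTG was in none of the windows shown. Over all 33469 promoters of the table, 14.95% held CCGGAA, 34.51% AGGAAG, 44.26% either ETS motif (the motifs can share a promoter), 11.58% AGATAA and 19.25% ACGTG. These letters are a description of the windows and not of binding.

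The 70 libraries held 4604116 to 9707132 counts on genes, so that 3 counts, taken as the floor, were worth 0.309 to 0.652 CPM (counts scaled to the library total). This floor covers counting error only. The summed CPM of 5 brown adipocyte markers was 196 to 13282 in BAT, 11.8 to 277 in SAT and 34.4 to 566 in VAT. Epithelial markers, mostly the milk protein gene Csn1s1, reached 218040 CPM in male SAT and 34417 CPM in female SAT, against at most 0.620 CPM in BAT and 155 CPM in VAT. The libraries that stood apart numbered 8. Female BAT PCB 52 24 had the brown marker sum of 196 CPM and 39808 CPM of skeletal muscle markers, which goes against its depot label. Female SAT sham 8 listed at 0 553 of 9713 genes whose median over libraries exceeded 5 CPM, and ribosomal protein genes took 27.7% of its counts (6.98 to 9.11% in the other 4 of its group). Male VAT PCB 52 13 listed 247 of 370 such genes of chromosome 9, where Vegfa lies, and 265 of 272 of chromosome X at 0. It was left out of the main fits and of ratios with Vegfa, and entered only an alternative fit and the other ratios. The others were male SAT PCB 52 19, female VAT sham 4 and 8, male VAT sham 11 and male VAT PCB 52 23, by brown, adipocyte or epithelial markers. Male VAT PCB 52 23 lay within its group in brown and adipocyte sums. Its epithelial sum was 14.6 CPM, against 1.53 to 2.57 CPM in PCB 52 15, 17 and 19. It lay below the 17.2 CPM of male VAT sham 5, which was not set apart.

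In sham rats Vegfa was the member with the most marked depot pattern. In female BAT its level was 655 CPM at the lowest, 871 CPM at the median and 1290 CPM at the highest, and in male BAT 619, 831 and 1212 CPM. Female SAT sham libraries 2, 6, 8, 10 and 12 had 93.7, 230, 44.5, 333 and 254 CPM, and male SAT libraries 149 to 389 CPM (median 264). Every sham BAT library lay above every sham SAT and VAT library of its sex, VAT being between 328 and 456 CPM in females (median 364) and between 170 and 455 CPM in males (median 356). On the TMM-scaled log2 scale Vegfa was higher in BAT than in SAT by 2.62 ± 0.34 (SE) in females and 1.91 ± 0.25 in males (edgeR quasi-likelihood F test, p-values adjusted after Benjamini and Hochberg over all genes tested and called at 0.05, adjusted p = 9.69e-06 and 6.23e-06). Over VAT it was higher by 1.47 ± 0.31 and 1.70 ± 0.25 (edgeR adjusted p = 0.00206 and 2.14e-05). SAT was below VAT in females by -1.15 ± 0.32 (edgeR adjusted p = 0.00964), a call lost without the libraries that stand apart (-0.82, adjusted p = 0.0503), and by -0.20 ± 0.24 in males, which did not pass. These libraries are bulk tissue, in which fewer cells of a type and less RNA per cell cannot be told apart.

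**Figure D1:**
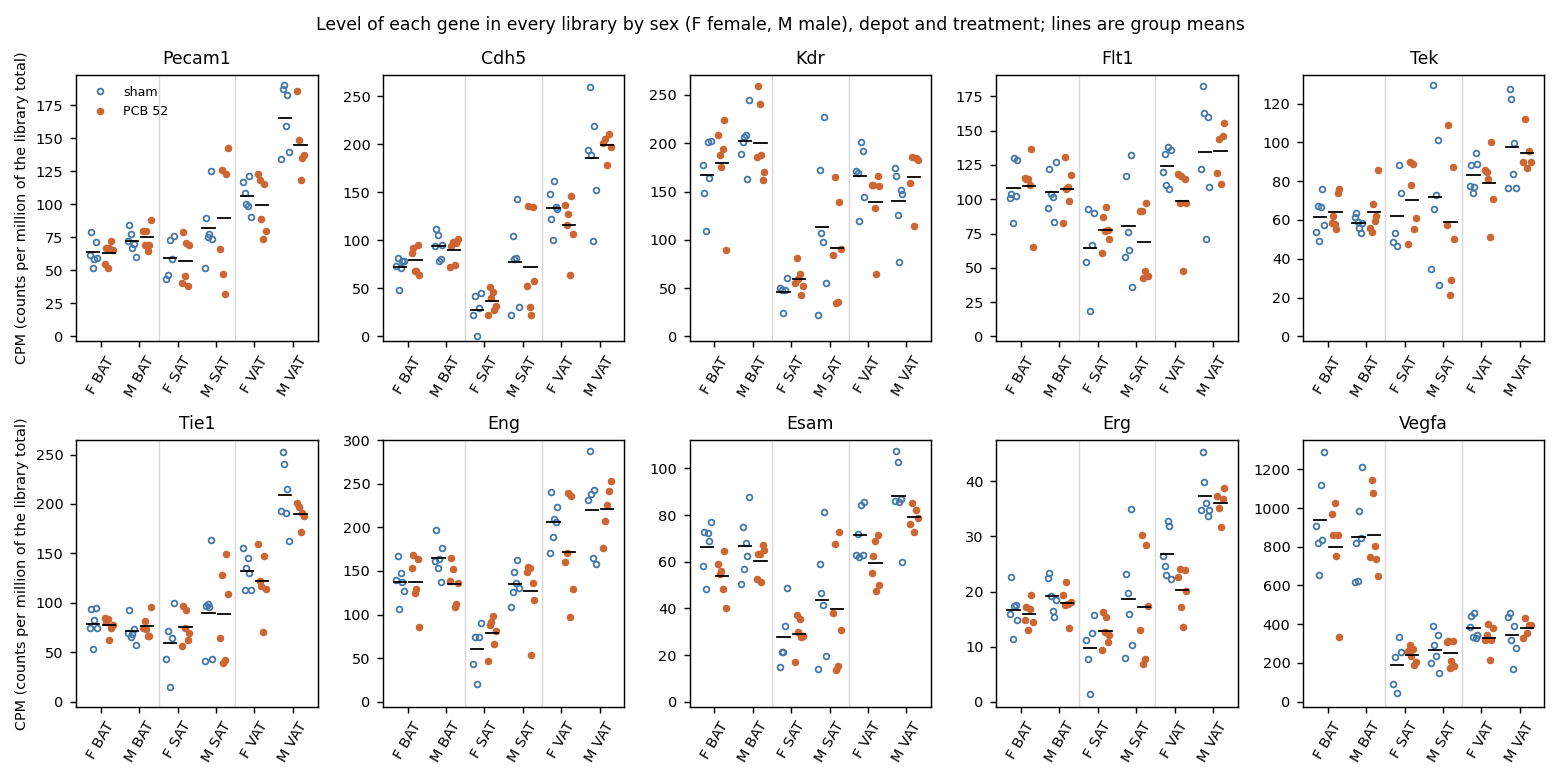
Level of each gene in CPM (vertical axis, linear) in every library, by sex and depot (horizontal axis), with open points for sham, filled points for PCB 52 and lines for group means. Vegfa sits highest in BAT, 9 other genes have their lowest libraries in SAT, and sham and PCB 52 points overlap in every panel.

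The receptor Kdr followed the same order in BAT and SAT but not in VAT. Its level in sham BAT was 109 to 202 CPM in females (median 171) and 163 to 245 CPM in males (median 204). In sham SAT the 5 female libraries 2, 6, 8, 10 and 12 had 49.7, 48.5, 24.2, 48.4 and 60.6 CPM, with no overlap with BAT, while the 6 male libraries ranged from 21.9 to 227 CPM (median 102) and did overlap. The BAT-over-SAT log2 difference was 2.11 ± 0.19 in females and 1.10 ± 0.35 in males (edgeR adjusted p = 1.72e-07 and 0.0129). In VAT, Kdr was 119 to 201 CPM in females (median 170) and 77.3 to 174 CPM in males (median 149). Female BAT and VAT differed by 0.19 ± 0.17 (edgeR adjusted p = 0.446), and male BAT was higher by 0.93 ± 0.35 (edgeR adjusted p = 0.0336). The male call was lost in 8 of 18 fits that each left out 1 library, with an adjusted p of up to 0.0782 without VAT sham 5. SAT lay below VAT by -1.92 ± 0.19 in females (edgeR adjusted p = 7.66e-07). In males that difference was -0.17 ± 0.35 (edgeR adjusted p = 0.747).

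Flt1, the other VEGF receptor, had smaller sham differences between BAT and SAT than Kdr in both sexes. Its sham levels were 82.7 to 130 CPM in female BAT, 83.5 to 127 CPM in male BAT, 18.8 to 93.0 CPM in female SAT and 36.2 to 133 CPM in male SAT. Groups overlapped between BAT and SAT in both sexes. Flt1 was higher in BAT than in SAT by 1.06 ± 0.22 in females (edgeR adjusted p = 0.000725) and by 0.64 ± 0.25 in males (edgeR adjusted p = 0.0411), where the call was lost in 14 of 18 fits that left out 1 library, with an adjusted p of up to 0.103 without BAT sham 11. Between BAT and VAT its difference was -0.02 ± 0.20 in females, and 0.04 ± 0.25 in males, where the sign turned on plain library totals. SAT lay below VAT by -1.08 ± 0.22 in females (edgeR adjusted p = 0.000882), while the -0.59 ± 0.25 in males missed the threshold (adjusted p = 0.0940) except without SAT sham 9 (-0.78, adjusted p = 0.0279).

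The angiopoietin receptors behaved differently from each other. Tek was 48.9 to 75.7 CPM in female BAT, 53.5 to 63.5 CPM in male BAT, 74.1 to 94.6 CPM in female VAT and 76.4 to 127 CPM in male VAT of sham rats. Male BAT and VAT libraries did not overlap in CPM, at -0.71 on plain totals and -0.35 ± 0.27 with TMM (edgeR adjusted p = 0.294). In SAT it was 46.7 to 88.2 CPM in females and 26.5 to 130 CPM in males. None of the 6 sham depot contrasts of Tek passed, the nearest being SAT over VAT in females at -0.44 ± 0.18 (edgeR adjusted p = 0.0568), which passed without female SAT sham 8 (-0.56, adjusted p = 0.00810) or without female SAT sham 10 (-0.57, adjusted p = 0.0223). Tie1, its partner, was highest in male VAT, at 162 to 253 CPM (median 204), against 57.0 to 93.2 CPM in male BAT with no overlap. Male BAT was lower than male VAT by a log2 difference of -1.17 ± 0.25 and male SAT by -1.08 ± 0.24 (edgeR adjusted p = 0.000701 and 0.00570). In females Tie1 fell from 113 to 156 CPM in VAT to 14.7 to 100.0 CPM in SAT, a difference of -1.31 ± 0.24 (edgeR adjusted p = 0.000466), and BAT was above SAT by 0.73 ± 0.24 (edgeR adjusted p = 0.0183).

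Eng, the BMP and TGF-beta co-receptor, was low in female SAT. The 5 sham libraries there had 20.3 to 90.0 CPM (median 73.9), all below the 106 to 168 CPM of female BAT and the 170 to 240 CPM of female VAT. Female BAT exceeded SAT by 1.48 ± 0.21 and SAT lay below VAT by -1.90 ± 0.21 (edgeR adjusted p = 1.80e-05 and 2.65e-06). In males the levels were 137 to 197 CPM in BAT, 108 to 163 CPM in SAT and 158 to 287 CPM in VAT. Groups overlapped, and the differences were 0.52 ± 0.14 for BAT over SAT and -0.55 ± 0.14 for SAT over VAT (edgeR adjusted p = 0.00562 and 0.0126). Ribosomal protein genes moved with the low levels of female SAT. They took 6.54 to 9.11% of counts there apart from sham 8, against 2.33 to 3.67% in female BAT and 2.48 to 4.92% in female VAT. Male SAT had 3.32 to 4.58% in sham and 3.004 to 7.31% in PCB 52. Male VAT had 2.71 to 3.38%, apart from 8.00% in sham 7. That library had the lowest Vegfa of male VAT, 170 CPM, and the lowest sum of the 9 other members, 968 CPM. The part of ribosomal protein genes in the results was not tested.

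Among the junction genes, Cdh5 showed the widest range. In female SAT sham libraries 2, 6, 8, 10 and 12 it was 22.4, 41.7, 0, 29.6 and 45.0 CPM. The library at 0 is the one that lists 553 genes at 0, and its floor of 3 counts allows up to 0.406 CPM. Female BAT held 47.9 to 81.9 CPM and female VAT 100 to 161 CPM. The SAT-over-VAT difference was -2.47 ± 0.58 with this library and -2.17 ± 0.20 without it, and BAT over SAT was 1.75 ± 0.56 with it and 1.49 ± 0.20 without it, each past the threshold (edgeR adjusted p from 2.99e-07 to 0.0163). Male SAT spread from 22.3 to 143 CPM, so that BAT over SAT did not pass (0.55 ± 0.32, edgeR adjusted p = 0.153) except without SAT sham 9 (0.75, adjusted p = 0.0468), while SAT over VAT did (-1.13 ± 0.32, edgeR adjusted p = 0.0191).

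Pecam1 differed mainly in VAT. Sham levels were 51.5 to 79.0 CPM in female BAT, 43.1 to 75.9 CPM in female SAT and 90.7 to 122 CPM in female VAT. Males had 60.2 to 84.3 CPM in BAT, 52.1 to 125 CPM in SAT and 134 to 190 CPM in VAT, so that the VAT libraries of each sex lay above all its BAT and SAT libraries. Male BAT was lower than VAT by -0.81 ± 0.15 and male SAT by -0.87 ± 0.15 (edgeR adjusted p = 0.000267 and 0.00117). Female SAT was lower than VAT by -0.74 ± 0.25 (edgeR adjusted p = 0.0264), a call lost without SAT sham 6 (adjusted p = 0.0523) or VAT sham 2 (adjusted p = 0.0521) and kept without SAT sham 8, where the difference was -1.15 (adjusted p = 9.27e-06). BAT over SAT was 0.17 ± 0.25 in females with library 8 and 0.61 ± 0.15 without it (edgeR adjusted p = 0.598 and 0.00179). In males it was 0.05 ± 0.15, of the other sign on plain totals.

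Esam was 48.2 to 77.0 CPM in female BAT, 15.1 to 48.6 CPM in female SAT and 62.1 to 85.7 CPM in female VAT. In males it was 50.6 to 87.7, 14.1 to 81.2 and 59.7 to 108 CPM in the same depots, with overlap between SAT and each other depot. BAT exceeded SAT by 1.45 ± 0.25 in females and 0.87 ± 0.29 in males (edgeR adjusted p = 0.000190 and 0.0177), the male call being lost only without BAT sham 11 among the 18 fits that left out 1 library (adjusted p = 0.0513). SAT was below VAT by -1.39 ± 0.25 in females (edgeR adjusted p = 0.000416) and by -0.89 ± 0.29 in males (adjusted p = 0.0353), the male call being lost in 7 of 18 such fits. BAT and VAT differed by 0.06 ± 0.23 in females, with the other sign on plain totals, and by -0.02 ± 0.29 in males.

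Erg, the transcription factor, was 11.4 to 22.6 CPM in female BAT, 1.35 to 15.8 CPM in female SAT and 22.3 to 32.8 CPM in female VAT. Male levels were 15.3 to 23.3 CPM in BAT, 8.02 to 34.9 CPM in SAT and 33.7 to 45.4 CPM in VAT. Female BAT exceeded SAT by 1.11 ± 0.30, and SAT lay below VAT by -1.63 ± 0.30 in females and -0.87 ± 0.24 in males (edgeR adjusted p = 0.00551, 0.000430 and 0.0174). Male BAT libraries all lay below male VAT libraries, with a difference of -0.57 ± 0.24 that missed the threshold (edgeR adjusted p = 0.0584) and passed it in 7 of 18 fits that left out 1 library.

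Of the 10 members in sham rats, 8 in females and 5 in males were called higher in BAT than in SAT. None was called lower. Over all genes tested, 47.6% and 55.3% were called in these contrasts. Between BAT and VAT, Vegfa alone was called in females and Vegfa and Kdr higher, Pecam1 and Tie1 lower in males, against 25.5% and 49.8% of all genes. Without female SAT sham 8 the female BAT-over-VAT contrast also called Pecam1 (-0.54), Cdh5 (-0.68), Tie1 (-0.54) and Erg (-0.49) lower, with 5 members called in all. Between SAT and VAT, 9 of 10 members were called lower in SAT in females and 6 of 10 in males. None was called higher, against 39.7% and 23% of all genes called. The median log2 difference over the 10 members was 1.28, -0.34 and -1.35 in females and 0.53, -0.19 and -0.73 in males for BAT over SAT, BAT over VAT and SAT over VAT. The medians over all genes tested lay between -0.14 and 0.10. TMM scaling shifted the log2 difference of a median gene against plain totals by 0.09, 0.18 and 0.09 in females and by 0.21, 0.37 and 0.16 in males.

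**Figure D2:**
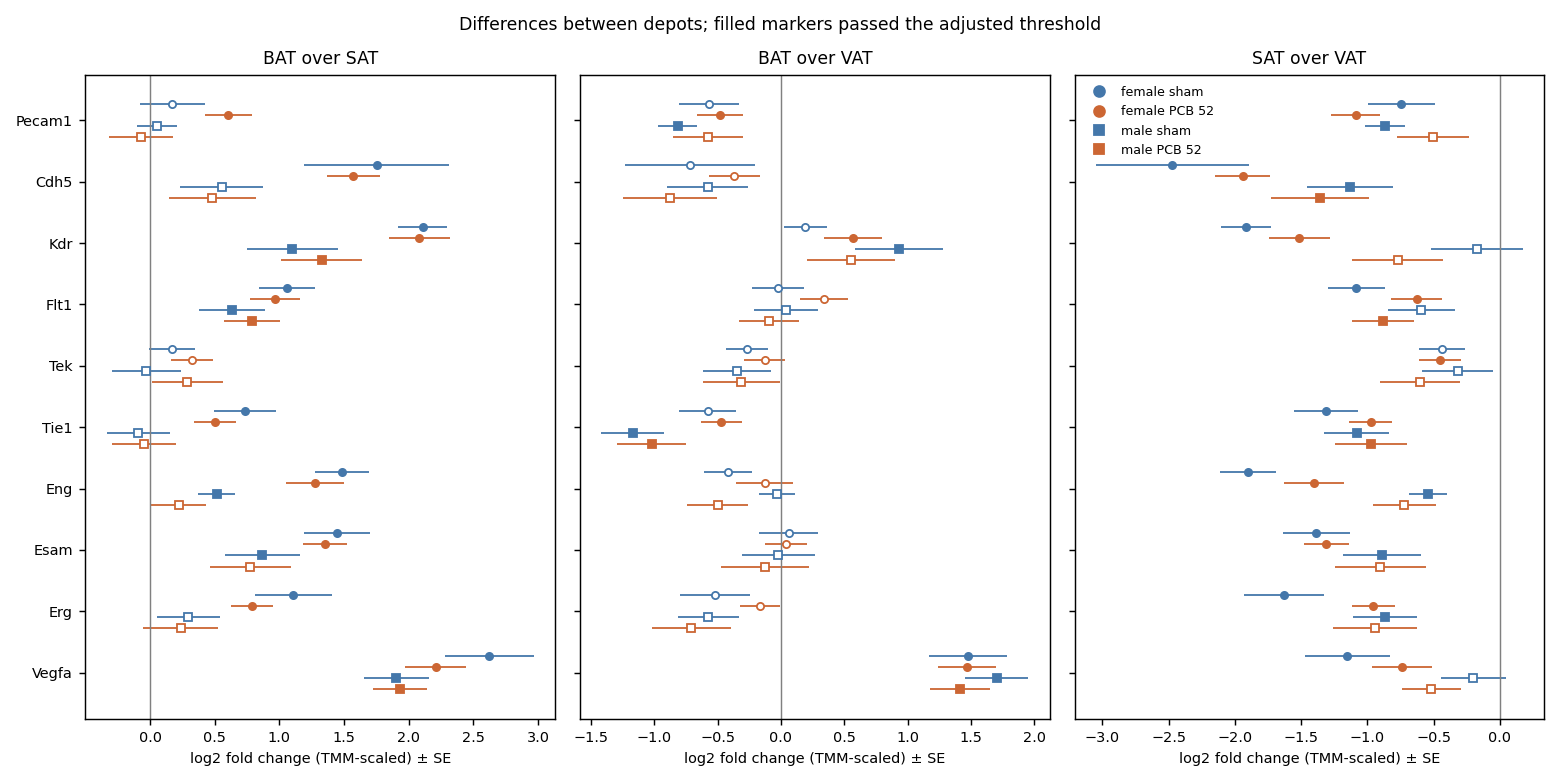
TMM-scaled log2 differences between depots (horizontal axis, with SE bars) for the 10 genes (vertical axis) in 4 sets of rats, with filled markers where the adjusted p passed the threshold. Vegfa lies to the right of 0 over SAT and over VAT in every set, and all genes lie to the left of 0 in the SAT-over-VAT panel.

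The PCB 52 rats, which the sham fits did not use, gave the same contrasts a second time. In females 9 of 10 members were called higher in BAT than in SAT. Tek was not called (0.32 ± 0.16, edgeR adjusted p = 0.0843). All 10 were called lower in SAT than in VAT. Backgrounds were 63.4% and 54.6% of all genes. TMM scaling moved a median gene by 0.48 in the first of these contrasts and by -0.30 in the second. On plain totals BAT over SAT was 0.06 for Tie1 (0.50 with TMM), 0.19 for Pecam1 (0.61), 0.34 for Erg (0.79), 0.47 for Flt1 (0.97) and -0.10 for Tek. The mean of Tie1 was 77.4 CPM in BAT and 75.5 CPM in SAT. Cdh5 was lower in female SAT than VAT by -1.94 ± 0.21 and Kdr by -1.51 ± 0.23 (edgeR adjusted p = 3.62e-07 and 2.40e-05). Tek was lower by -0.45 ± 0.16, a call lost without SAT PCB 52 14 or 22 or VAT PCB 52 22 (edgeR adjusted p = 0.0220 with all libraries and up to 0.0554 without one). Between BAT and VAT in females, Vegfa (1.47 ± 0.23) and Kdr (0.57 ± 0.23) were called higher and Pecam1 (-0.48 ± 0.18) and Tie1 (-0.47 ± 0.16) lower, against 44.1% of all genes. The call of Kdr was lost in 15 of 18 fits that left out 1 library and with a replicate block (0.55, edgeR adjusted p = 0.0866), that of Pecam1 in 6 and that of Tie1 in 3.

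In male PCB 52 rats fewer members passed, and TMM scaling moved a median gene by 0.09 to 0.28. Kdr (1.33 ± 0.31), Flt1 (0.79 ± 0.21) and Vegfa (1.93 ± 0.21) were higher in BAT than in SAT, 3 of 10 against 41.3% of all genes, and Esam joined them with a replicate block (0.97, edgeR adjusted p = 0.0238). Vegfa (1.41 ± 0.24) was higher and Tie1 (-1.02 ± 0.27) lower in BAT than in VAT, 2 of 10 against 29.6%. Cdh5 (-1.36 ± 0.37), Flt1 (-0.88 ± 0.23) and Tie1 (-0.98 ± 0.27) were lower in SAT than in VAT, 3 of 10 against 10.6%, but none of the 3 was called without VAT PCB 52 15, 17, 19 or 23, one at a time, or without the libraries that stand apart. Vegfa was called higher in BAT than in SAT and in VAT in all 4 sets of rats, in each fit that left out 1 library.

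In male SAT the 9 members other than Vegfa summed to 360, 919, 718, 682, 1172 and 426 CPM in sham libraries 1, 3, 5, 7, 9 and 11, and to 617, 1008, 388, 286, 967 and 658 CPM in PCB 52 libraries 13, 15, 17, 19, 21 and 23. The summed CPM of 5 adipocyte markers in the same order was 1358, 9135, 7594, 8079, 10120 and 825, then 4665, 11210, 1726, 708, 11350 and 2581. Sham libraries 1 and 11 and PCB 52 libraries 17 and 19 were low in both sums, and sham 9 and PCB 52 15 and 21 were high in both. Milk protein and epithelial markers ran the other way in most of these, at 211500 and 184600 CPM in sham 1 and 11 and 218000 CPM in PCB 52 17, but 1.37 CPM in sham 9 and 2.64 CPM in PCB 52 21. PCB 52 19, low in both sums, had 4662 CPM of epithelial markers. Female SAT sums were 220 to 628 CPM for the 9 members, with 1416 to 3587 CPM of adipocyte markers.

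Over all 23 SAT libraries, within-group deviations of the mean log2 CPM of the 9 members went with those of summed adipocyte markers at r = 0.67, of macrophage markers at 0.93 and of fibroblast markers at 0.86, and against those of epithelial markers at -0.54. Without female SAT sham 8 (22 libraries) these were 0.93, 0.89, 0.83 and -0.73. These are descriptions over libraries that share a total, so that a library with many milk protein counts has lower CPM for every other gene. The part of adipocyte, macrophage, fibroblast and epithelial content in the depot and sex differences of SAT was not tested. Among themselves the 9 members had a median pairwise r of 0.51 over 24 BAT, 0.72 over 23 SAT and 0.66 over 22 VAT libraries. Vegfa correlated with them at a median of 0.31 in BAT, 0.69 in SAT and 0.45 in VAT. In BAT its deviations went with those of summed brown adipocyte markers at r = 0.82 and against those of fibroblast (-0.73) and macrophage markers (-0.62). Without female BAT PCB 52 24, which goes against its depot label, these were 0.69, -0.65 and -0.41 over 23 libraries, and the median with the 9 members was 0.16.

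**Figure D3:**
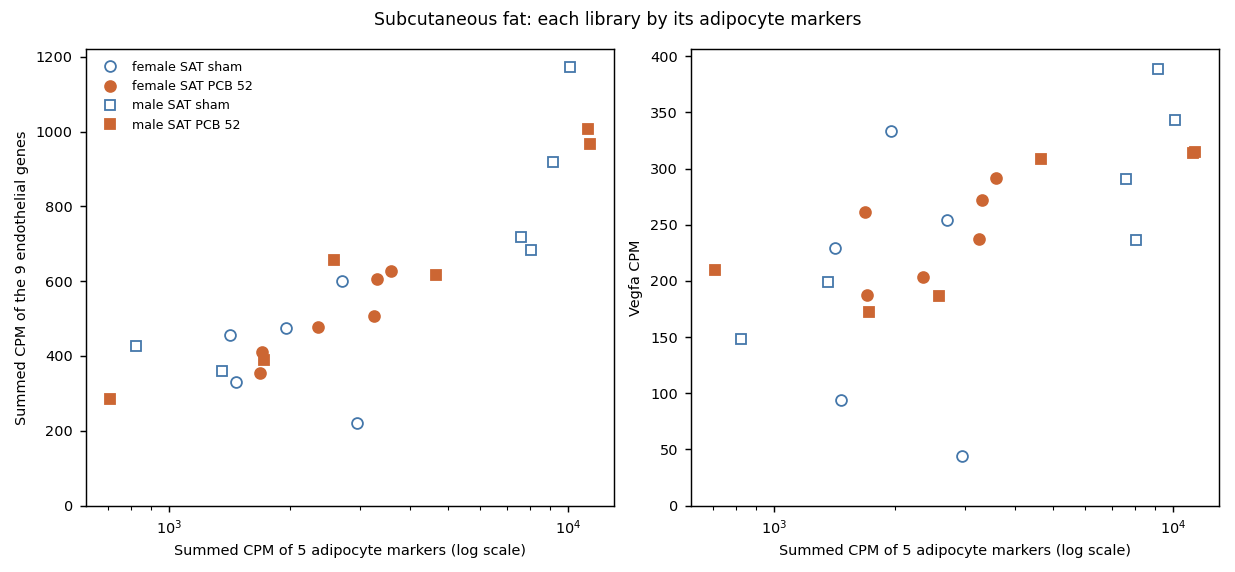
Summed CPM of the 9 endothelial members (left, vertical axis) and CPM of Vegfa (right, vertical axis) against the summed CPM of 5 adipocyte markers (horizontal axis, log scale) in each subcutaneous library. Male libraries (squares) spread from 286 to 1172 CPM of the 9 members, and the lowest female library (open circle at 220 CPM) is female SAT sham 8.

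Ratios of 2 members within a library do not depend on its total. They were compared as log2 ratios with two-sided exact permutation tests, where the smallest p is 0.00216 for 6 against 6 or 5 libraries, and adjusted over 18 comparisons. Male VAT PCB 52 entered with 5 libraries, and with 4 where Vegfa is part of the ratio. A level of one gene against another also depends on gene length, so only differences between groups are read. In sham females the ratio of Flt1 to Kdr was lower in BAT than in SAT by -0.96, with means of -0.62 ± 0.14 (SD, n = 6) and 0.34 ± 0.49 (n = 5) and no overlap (exact p = 0.00216, adjusted p = 0.00649). In sham males it was lower in BAT than in SAT by -0.67 (exact p = 0.00433, adjusted p = 0.0111). Male SAT sham 1 had a ratio of 1.40 and the other 5 libraries -0.78 to -0.50. Without it the difference was -0.33 (exact permutation, adjusted p = 0.0146). Male BAT was lower than male VAT by -0.87 (exact p = 0.00216, adjusted p = 0.00649). Female BAT and VAT differed in it by -0.21 (exact p = 0.149). The higher ratio in female SAT than in VAT (0.75, exact p = 0.0130, adjusted p = 0.0292) was lost in 8 of 11 sets without 1 library.

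The ratio of Tie1 to Tek was highest in male VAT, with a mean of 1.11 ± 0.13 (SD, n = 6), against 0.27 ± 0.21 in BAT and 0.37 ± 0.43 in SAT. Male BAT (-0.85) and SAT (-0.74) were lower than VAT with no overlap (exact p = 0.00216, adjusted p = 0.00649 for each). Female SAT was lower than VAT by -0.94 (exact p = 0.0173, adjusted p = 0.0346), which fell to -0.60 without female SAT sham 8 and missed the threshold there (adjusted p = 0.103), as in 9 of 11 sets without 1 library. The ratio of Vegfa to Kdr was higher in BAT than in VAT by 1.27 in females and 0.78 in males, with no overlap (exact p = 0.00216, adjusted p = 0.00649 for each). BAT and SAT differed in it by 0.70 in females (exact p = 0.0671) and 0.53 in males (exact p = 0.193). These were 0.96 without female SAT sham 10 and 0.86 without male SAT sham 1, each then past the threshold (exact permutation, adjusted p = 0.0107 and 0.0111).

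**Figure D4:**
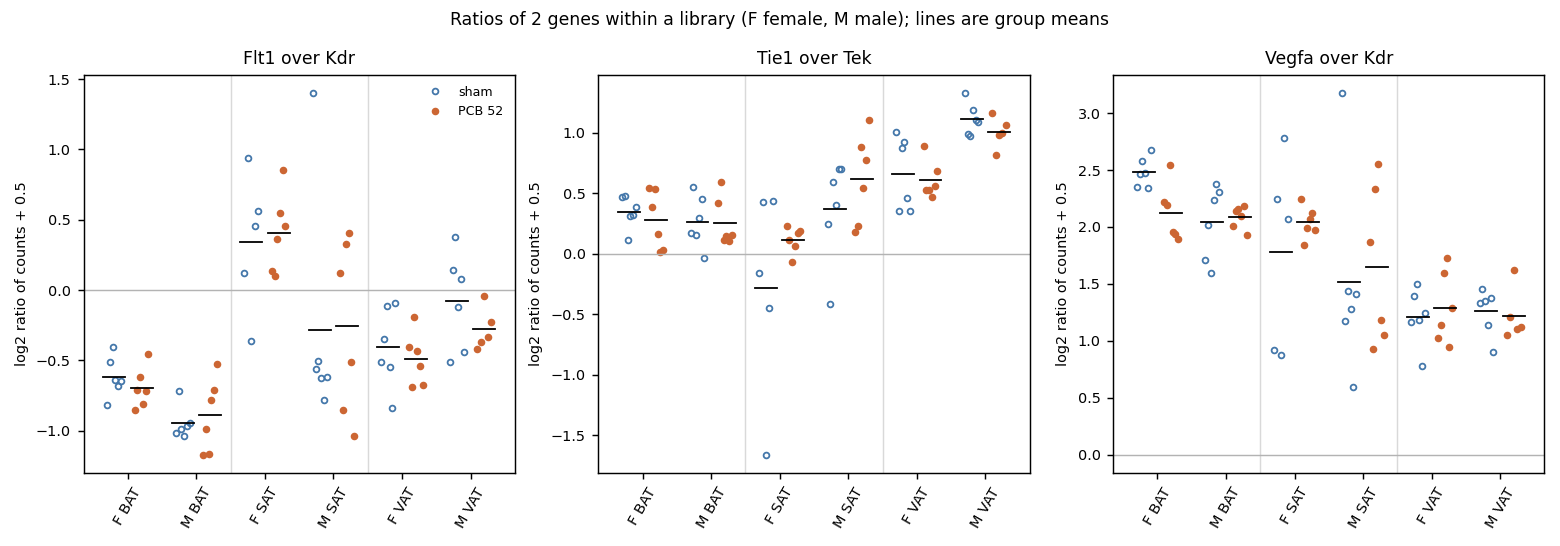
Log2 ratio of counts (vertical axis) of Flt1 over Kdr, Tie1 over Tek and Vegfa over Kdr in every library, by sex and depot (horizontal axis), with open points for sham, filled points for PCB 52 and lines for group means. The ratio of Flt1 to Kdr is below 0 in all BAT libraries and spreads widest in SAT, and Tie1 over Tek is highest in male VAT.

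Between the sexes, a few members were called in sham rats, and not the same ones in each depot. In BAT no member passed, against 0.0725% of all genes. Cdh5 (0.42 ± 0.13) and Pecam1 (0.22 ± 0.10) were past an unadjusted p of 0.05, with adjusted p-values of 0.415 and 0.729 in edgeR. In SAT 2 of 10 members were called higher in males, against 8.02% of all genes called. All 10 estimates there were above 0, with a median of 0.79. Past an unadjusted p of 0.05 in edgeR were 6 members, and 3199 of 12157 genes tested. Eng was 108 to 163 CPM in males and 20.3 to 90.0 CPM in females without overlap, a difference of 1.38 ± 0.28 (edgeR adjusted p = 0.00905) that was 1.29 without female SAT sham 8. Kdr was higher by 1.44 ± 0.42 (edgeR adjusted p = 0.0398), with overlap. The call of Kdr was lost in 11 of 23 fits that left out 1 library, among them the one without female SAT sham 8 (1.45, edgeR adjusted p = 0.0806). Adipocyte markers summed to 1416 to 2959 CPM in these female libraries and 825 to 10120 CPM in the male ones.

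In VAT 3 of 10 members were called higher in sham males, against 20.8% of all genes called. Pecam1 was 134 to 190 CPM in males and 90.7 to 122 CPM in females (0.55 ± 0.12, edgeR adjusted p = 0.00386). Tie1 was 162 to 253 CPM against 113 to 156 CPM (0.56 ± 0.14, edgeR adjusted p = 0.00727), and Erg 33.7 to 45.4 CPM against 22.3 to 32.8 CPM (0.39 ± 0.12, edgeR adjusted p = 0.0266). These 3 ranges did not overlap between the sexes, and how many of all genes do so was not counted. The call of Erg was lost without female VAT sham 6 or 12 or male VAT sham 3 or 5 (adjusted p of up to 0.0712), and Cdh5 (0.37 ± 0.18) passed without male VAT sham 7 (0.49, edgeR adjusted p = 0.0358). The VEGF receptors did not pass in VAT, with Kdr at -0.35 ± 0.19 and Flt1 at 0.01 ± 0.19 (edgeR adjusted p = 0.208 and 0.979).

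For PCB 52 against sham, no member passed in any of the 6 comparisons of sex and depot. The edgeR fits called 0% of all genes in female BAT, 0% in female SAT, 0% in female VAT, 0% in male BAT, 0% in male SAT and 0% in male VAT. At an unadjusted p under 0.05 they held 388, 605, 1066, 1054, 165 and 1226 genes. DESeq2 called 37 genes in female VAT, 14 in male BAT and 149 in male VAT, and limma voom 1 in male VAT, with no member among them. Only 2 members were past an unadjusted p of 0.05, Erg in female VAT and Eng in male BAT.

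Erg in female VAT was 22.3 to 32.8 CPM in sham (median 25.6) and 13.6 to 24.2 CPM in PCB 52 (median 21.4). None of the 6 PCB 52 libraries reached the mean of sham, though the groups overlapped. The log2 difference was -0.37 ± 0.13 (edgeR adjusted p = 0.479). Eng in male BAT was 137 to 197 CPM in sham (median 162) and 108 to 165 CPM in PCB 52 (median 138). Here too none of the 6 PCB 52 libraries reached the mean of sham. The difference was -0.35 ± 0.12 (edgeR adjusted p = 0.441). Esam in female BAT was lower in all 6 PCB 52 libraries than the sham mean, at 40.3 to 64.6 CPM against 48.2 to 77.0 CPM. Its difference was -0.31 ± 0.15 (edgeR adjusted p = 0.999). Pecam1 in male VAT was 149, 119, 135 and 137 CPM in PCB 52 libraries 15, 17, 19 and 23, below the sham mean of 166 CPM. Male VAT PCB 52 13, which was left out of the fit, had 186 CPM and lay above that mean. The fitted difference was -0.30 ± 0.14 (edgeR adjusted p = 0.471). All PCB 52 libraries fitted also lay below the sham mean for Flt1 and Esam in female VAT and for Tie1 and Esam in male VAT. For Vegfa in male VAT all 4 fitted lay above it. How many of all genes show such a pattern was not counted.

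In female VAT all 10 estimates were below 0, with a median of -0.21, from -0.37 (Erg) to -0.05 (Tek). The library PCB 52 20 had the lowest sum of the 9 members there, 530 CPM against 823 to 1121 CPM in the other 5 PCB 52 libraries. Without it the estimate of Tek was 0.03, and without the libraries that stand apart the median was -0.12. Medians over the members were -0.01 in female BAT, 0.21 in female SAT, -0.06 in male BAT, -0.16 in male SAT and 0.01 in male VAT. Standard errors in SAT ran from 0.18 (Kdr) to 0.71 (Cdh5) in females and from 0.24 (Eng) to 0.51 (Cdh5) in males. Without female SAT sham 8 the female SAT median was 0.07, and Pecam1 went from -0.40 to 0.01. On plain totals Flt1 in female BAT, Tek and Esam in female SAT, Pecam1, Flt1 and Vegfa in male BAT and Pecam1 in male SAT had the other sign.

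**Figure D5:**
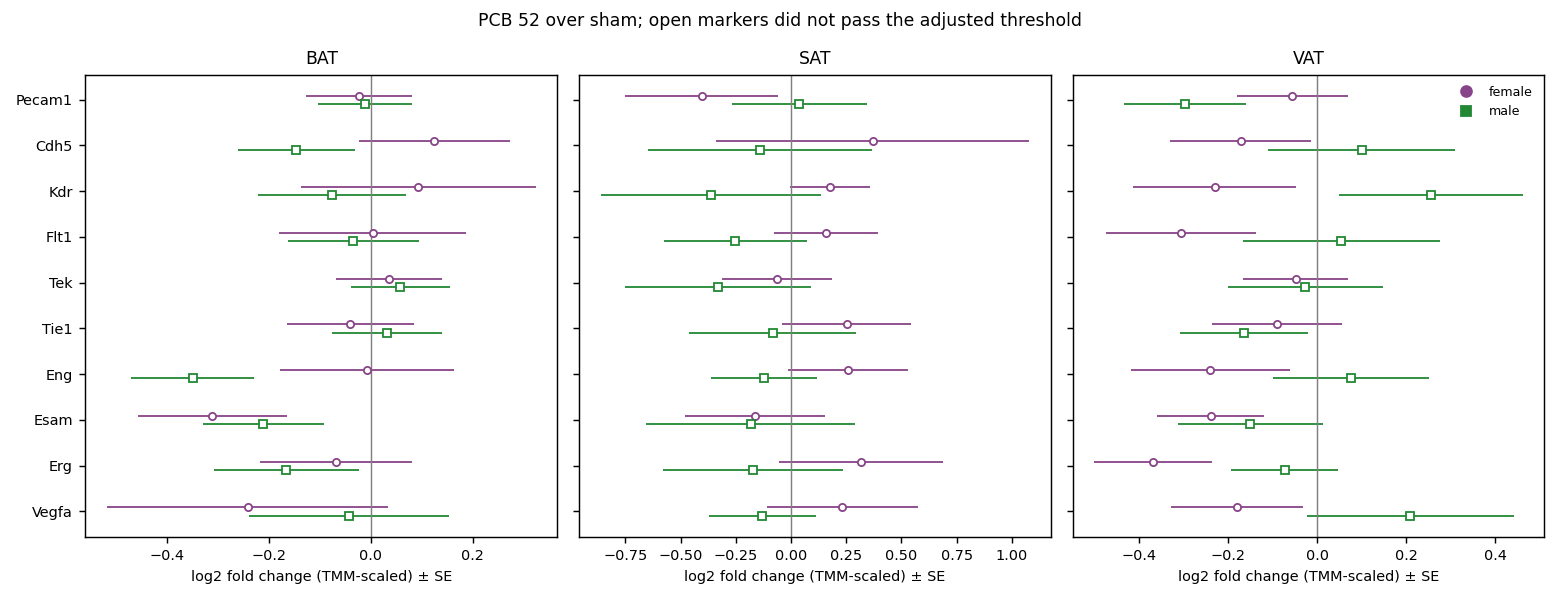
TMM-scaled log2 difference of PCB 52 over sham (horizontal axis, with SE bars, scales differing between panels) for the 10 genes (vertical axis) in each depot, with circles for females and squares for males. All markers are open because none passed the adjusted threshold, and the bars are widest in SAT.

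A sex-by-treatment interaction term, fitted per depot, asked whether males and females responded differently. No member passed, and 0% of all genes were called in BAT, 0% in SAT and 0% in VAT. The lowest adjusted p of a member in edgeR was 0.425 (VAT). Male minus female, the estimate farthest from 0 among the members was -0.36 (Eng) in BAT, -0.56 (Kdr) in SAT and 0.48 (Kdr) in VAT. Within-library ratios gave no difference past the threshold between PCB 52 and sham in 18 comparisons. The lowest p was that of Vegfa to Kdr in female BAT, with means of 2.12 ± 0.25 (SD, n = 6) in PCB 52 and 2.48 ± 0.13 (n = 6) in sham (difference -0.36, exact p = 0.0152, adjusted p = 0.273). It passed only without PCB 52 18 (-0.44, exact permutation, adjusted p = 0.0390).

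Genes of the same pathways were counted from 9 related lists, as numbers past the threshold in sham females and sham males. The text names up to 3 genes a list by p among those called the same way in both sexes. Over all genes tested, 47.6% in females and 55.3% in males were called in BAT over SAT, with medians of -0.14 and -0.04, and 39.7% and 23% in SAT over VAT. Shares of a list near these are no result about the list. Of 7 other VEGF ligands and co-receptors, 3 were higher and 2 lower in BAT than in SAT in females, and 3 higher and 1 lower in males (list medians -0.67 and 0.70). Nrp1, a VEGF co-receptor, was higher by 2.13 ± 0.63 and 1.10 ± 0.29, and Vegfb, a ligand of Flt1, by 2.57 ± 0.32 and 1.15 ± 0.38. Nrp2, the other neuropilin, was higher by 1.504 ± 0.595 and 1.31 ± 0.25, the female call being lost in 14 of 17 fits that left out 1 library. Of 3 measured genes of the angiopoietin axis, 1 in females (2 without female SAT sham 8) and 2 in males were lower in BAT than in SAT. Angpt4, an angiopoietin ligand, was lower in SAT than in VAT by -1.38 ± 0.50 and -2.13 ± 0.42, the female call being lost in 8 of 17 fits that left out 1 library. Of the endoglin and BMP axis, 11 (females) and 10 (males) of 13 genes were tested. Of these, 2 were higher and 2 lower in BAT than in SAT in each sex, below the share of all genes. The 4 called became 7 in females without female SAT sham 8, and 2 in males without any one of BAT sham 5, 9 or 11 or VAT sham 1, 3, 5 or 9. Id2, a target of BMP signalling, was lower by -1.99 ± 0.28 and -1.81 ± 0.28, and Smad6, an inhibitor of it, was lower in SAT than in VAT by -1.87 ± 0.49 and -1.27 ± 0.30.

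Of endothelial transcription factors, 9 of 18 were lower in SAT than in VAT in females and 6 of 17 in males, with 1 and 0 higher. Klf2, which responds to flow, was lower by -1.20 ± 0.25 and -0.90 ± 0.24, Nr2f2, a factor of venous identity, by -1.42 ± 0.33 and -1.28 ± 0.16, and Tcf15, a factor of capillary fatty acid uptake, by -2.34 ± 0.52 and -2.04 ± 0.54. In BAT over SAT 6 were higher and 3 lower in females, and 4 higher and 2 lower in males (medians 0.43 and -0.06), a share near or below that of all genes. Among them was Meox2 (1.45 ± 0.22 and 0.75 ± 0.23). Of 18 other surface and junction genes, 12 in females and 8 in males were lower in SAT than in VAT, including Jam2 at -1.004 ± 0.145 and -0.98 ± 0.25. In BAT over SAT 9 and 4 were higher and 3 and 2 lower, with Egfl7, a secreted vessel protein, at 1.95 ± 0.26 and 1.62 ± 0.29. The 12 called in females became 7 without BAT sham 6 or BAT sham 8. In BAT over VAT 5 and 9 were lower and 1 and 2 higher, against 25.5% and 49.8% of all genes, with Aplnr, the apelin receptor, at -1.32 ± 0.34 and -2.38 ± 0.36. No list was tested as a whole.

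Capillary lipid handling showed 7 of 10 genes higher and 1 lower in BAT than in SAT in females, and 1 and 1 in males (medians 1.16 and 0.08), against 47.6% and 55.3% of all genes called. The male count became 1 without BAT sham 9 or 11 or SAT sham 7. Lpl, which frees fatty acids at the capillary wall and is made by adipocytes, was higher by 3.43 ± 0.33 and 0.98 ± 0.29. Of 6 lymphatic genes, 4 were lower in BAT than in SAT in females and 5 in males, and none higher (medians -2.01 and -1.45). The female count holds Prox1, whose call was lost with a replicate block (edgeR adjusted p = 0.0572). The male count became 3 without any one of BAT sham 1, 3, 5, 7 or 11 or SAT sham 1 or 11. T and B lymphocyte markers summed to 323 CPM in male SAT sham 11, against 6.17 to 9.38 CPM in the other sham male SAT libraries. In male SAT PCB 52 23 they summed to 903 CPM. The part of lymphocyte content in the lymphatic counts was not tested. Prox1, the factor that sets lymphatic identity, stood at a median of 0.438 CPM in BAT and 6.03 CPM in SAT of females and at 0.549 and 14.99 CPM in males, both BAT medians lying within the range of the floor. Of 12 mural cell genes, 3 were higher and 4 lower in BAT than in SAT in females, and 0 and 3 in males (a median of -0.06 in males), with Cnn1, a smooth muscle gene, at -4.76 ± 0.39 and -2.74 ± 0.63. Epithelial markers, near 0 in BAT and high in most SAT libraries, moved with these contrasts, and their part in them was not tested. Of 11 oxygen-sensing and VEGF-inducing genes, 9 were higher and 1 lower in females and 6 and 1 in males (medians 2.01 and 0.79). Esrra, a nuclear receptor of mitochondrial genes, was higher in BAT than in SAT by 2.77 ± 0.25 and 2.74 ± 0.20. Ppargc1a, its coactivator and an inducer of Vegfa, was higher by 7.73 ± 0.73 and 6.67 ± 0.39, and it is also on the list of brown adipocyte markers. No gene of the 9 lists passed for PCB 52 in any of the 6 comparisons.

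Likeness was measured as Pearson's r of within-group deviations of log2 CPM over 69 libraries, among 10995 genes. For Cdh5 the nearest genes were Timp3 (0.976), Pdzd2 (0.975), Myorg (0.975), Arhgap31 (0.973) and Sptbn1 (0.968), with Spearman's rho of at least 0.752. These rested on female SAT sham 8, where Cdh5 is at 0. Over the other 68 libraries r with Timp3 was 0.880, and the nearest named genes were Adgrf5 (0.934), Ptprm (0.926), Dlc1 (0.909) and Hspa12b (0.899). For Vegfa the nearest were Arsa (0.845), Tbkbp1 (0.841), Dock6 (0.823), Adcy6 (0.822) and Nrbp2 (0.820), of which Arsa (0.781) and Tbkbp1 (0.775) remained among the nearest 5 without that library. The libraries share depth and tissue content, and the values are descriptions.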

How the data were processed

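RNA was read from bulk fat (RNA integrity number at least 8, per the labels' protocols). Per the submitters' processing notes, FastQC, HISAT2 and the rat build rn6 were used. For the counting program, annotation and strand, the sources used here give no name or setting. The authors deposited 5 tables of whole-number counts per gene. The other table, female VAT, was deposited by the authors with whole-number gene lines followed by 5 spreadsheet lines (sums, scaling factors and a repeat of Ppargc1a, some not whole), so its columns were handled as estimated counts and those 5 lines were left out. Of 15319 gene numbers, 15230 matched a RefSeq symbol.

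The members and gene lists were chosen with earlier results of these data known. Groups come from the sample labels. The edgeR 4.0.16 quasi-likelihood fit (R 4.3.3, TMM, filterByExpr, robust) ran on all genes, with p-values adjusted after Benjamini and Hochberg (threshold 0.05). Fits were made per sex and depot for treatment, per sex and treatment for depots, and per depot for sex and interaction. Fold changes are log2 ± SE. Ratios are log2 of counts plus 0.5. Alternatives were RLE size factors, no expression filter, DESeq2 1.42.0, limma 3.58.1 voom, muscle, milk and globin genes taken out, libraries left out, a ratio pseudocount of 5 and a replicate block. Plain totals, the likeness without female SAT sham 8 and the BAT correlations without female BAT PCB 52 24 were added after seeing the data. The treatment and depot fits of edgeR were tested on simulated counts, with SAT over VAT as the depot contrast scored. The sex and interaction fits, DESeq2 and limma voom were not. No 2 libraries of a group agreed within sampling noise.

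All 10 members were tested in every comparison, and the text gives some of their estimates. Of each list, up to 3 genes with the smallest p were eligible among those called one way in both sexes in a sham depot contrast, and the text gives some of these. Likeness names the nearest 5 genes to Cdh5 and to Vegfa among genes with a mean of at least 1 CPM in every depot. The labels number rats but do not say in words that equal numbers are 1 animal. Over 68 pairs of libraries with 1 number the median correlation of deviations was 0.0687, with 24 over 0.1. Over 340 pairs with different numbers the median was -0.0216. The main depot fits did not pair libraries by number. The p-values measure the spread between these rats' libraries. In the depot, sex and interaction fits of edgeR this spread was estimated over all groups of the fit. Libraries outside a contrast thus also bear on its p-value.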

Additional observations from a re-analysis of the deposited data

Results flagged for a closer look

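In 5 of 120 pairs of gene and group, 1 library lay far from the others of its group by Dixon's test, against about 6 that chance would give at 1 in 20. Cdh5 was 47.89 CPM in female BAT sham 6 and 70.92 to 81.93 CPM in the other 5 libraries. In female BAT PCB 52 24, Kdr was 89.27 CPM (175.5 to 224.3 CPM in the others) and Flt1 was 65.27 CPM (110.2 to 136.4 CPM). This library also had the lowest brown adipocyte marker sum of BAT, 196 CPM. In female VAT PCB 52 20, Kdr was 64.49 CPM (133.3 to 166.3 CPM in the others) and Flt1 was 47.70 CPM (97.01 to 118.8 CPM). Both VEGF receptors were thus low in the same 2 libraries, and not they alone. Vegfa was the lowest of its group in each, at 333 and 214 CPM. So was the sum of the 9 other members, at 578 and 530 CPM. Tek went the other way in female BAT PCB 52 24, at 76.1 CPM the highest of its group.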

How the results depend on the processing

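No member was called for PCB 52 or for its interaction with sex under any alternative run. Vegfa was called higher in BAT than in SAT and in VAT in every alternative fit with a test.

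Counts of members called moved as follows, and the cause was not tested. BAT over VAT in female sham (1) was 2 with DESeq2, 4 without the 8 libraries that stand apart, and 1 to 5 with 1 library left out. In female PCB 52 (4) it was 2 with limma voom and 1 to 5 with 1 library left out. In male PCB 52 (2) it was 4 without the libraries that stand apart and 2 to 6 with 1 left out, 6 being without male SAT PCB 52 19. BAT over SAT in male sham (5) was 3 to 6. SAT over VAT in male PCB 52 (3) was 5 with DESeq2, 0 without the libraries that stand apart and 0 to 7. Male over female in sham SAT (2) was 4 with DESeq2, 1 with limma voom, 1 without the libraries that stand apart and 1 to 2.

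Of the list counts of BAT over SAT in the report, the angiopoietin axis (1 in females, 2 in males) gave 2 in females with DESeq2 and 1 in males with limma voom. The endoglin and BMP axis (4 in each sex) gave 7 in females without the libraries that stand apart and 2 in males with no expression filter. Lymphatic genes (5 in males) gave 2 with limma voom. Over all lists and contrasts run, 12 of 108 counts moved past 1.5 times with DESeq2, 7 of 108 with limma voom, 9 of 99 without the libraries that stand apart, 4 of 54 with a replicate block, 1 of 108 with no expression filter and 74 of 1566 with 1 library left out.

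Counts over all genes moved more than those of members in some contrasts. BAT over VAT in female sham went from 3011 to 5240 genes without the libraries that stand apart. SAT over VAT in male PCB 52 went from 1259 to 2286 with DESeq2, 579 without the libraries that stand apart and 820 with a replicate block. The sex difference went from 975 to 1495 (DESeq2) or 355 (limma voom) in SAT, from 8 to 43 (DESeq2) in BAT and from 2440 to 1525 in VAT without the libraries that stand apart. The interaction in VAT went from 0 to 67 with DESeq2.

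The replicate block cost the call of Kdr in BAT over VAT of female PCB 52 (0.55) and gave that of Esam in BAT over SAT of male PCB 52 (0.97), and it changed no other call of a member. Of the list genes given in the report it cost the female call of Prox1 in BAT over SAT (-2.23, edgeR adjusted p = 0.0572). Deviations of same-numbered libraries correlated above 0.1 in 24 of 68 pairs. The block was planned as an alternative to the main depot fits, which did not pair libraries. It turned uncalled differences of male sham in Tek (0.11) and Tie1 (0.0057) of BAT over SAT and Esam (0.011) of BAT over VAT, and of Pecam1 (0.031) in BAT over SAT of male PCB 52.

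Other uncalled differences changed sign. Without the libraries that stand apart these were Pecam1 for PCB 52 in female SAT (0.014), Flt1 in BAT over VAT of female (0.095) and male sham (-0.094) and Pecam1 in BAT over SAT of male sham (-0.018). With limma voom they were Pecam1 for PCB 52 in male SAT (-0.081), Tek (0.14) and Tie1 (0.042) in BAT over SAT of male sham and Pecam1 in BAT over SAT of male PCB 52 (0.078). With no expression filter they were Pecam1 in BAT over SAT (-0.013) and Flt1 in BAT over VAT (-0.021) of male sham.

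With 1 library left out, sign changes among uncalled differences gave these ranges. For PCB 52 they were -0.53 to 0.014 (Pecam1, female SAT), -0.10 to 0.22 (Pecam1, male SAT), -0.10 to 0.032 (Tek, female VAT) and -0.026 to 0.093 (Tek, male BAT). For BAT over VAT they were -0.095 to 0.039 (Flt1) and -0.0013 to 0.13 (Esam) in female sham, and -0.097 to 0.10 (Flt1), -0.19 to 0.0099 (Eng) and -0.19 to 0.017 (Esam) in male sham. For BAT over SAT they were -0.029 to 0.13 (Pecam1), -0.20 to 0.20 (Tek) and -0.23 to 0.089 (Tie1) in male sham and -0.27 to 0.064 (Pecam1) in male PCB 52. Kdr in SAT over VAT of male sham ranged from -0.49 to 0.0375, and Vegfa in male over female sham BAT from -0.26 to 0.0050.

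Ratios without the libraries that stand apart were 0.91 (Flt1 to Kdr) and -0.61 (Tie1 to Tek) in SAT over VAT of female sham, both then missing the threshold. For PCB 52 they turned to -0.11 (Flt1 to Kdr) in female and -0.11 in male SAT and, for Vegfa to Kdr, to -0.040 in male SAT and -0.020 in male VAT. With 1 library left out, Flt1 to Kdr ranged from -0.11 to 0.21 (female SAT), -0.016 to 0.11 (male BAT) and -0.11 to 0.36 (male SAT) for PCB 52, from 0.60 to 0.93 in SAT over VAT of female sham and from -0.54 to -0.10 in male sham. Tie1 to Tek ranged from -0.12 to 0.015 (female VAT) and -0.078 to 0.046 (male BAT) for PCB 52, and in female sham from 0.28 to 0.81 (BAT over SAT), -0.38 to -0.25 (BAT over VAT) and -1.12 to -0.60 (SAT over VAT). Vegfa to Kdr ranged from -0.44 to -0.31 (female BAT), -0.014 to 0.14 (female VAT), -0.042 to 0.11 (male BAT), -0.044 to 0.47 (male SAT) and -0.11 to 0.058 (male VAT) for PCB 52. In BAT over SAT it ranged from 0.48 to 0.96 (female sham) and 0.35 to 0.86 (male sham), and in SAT over VAT of male sham from -0.081 to 0.44.

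Depth allowed 3 counts to be told from 0 at 0.309 to 0.652 CPM, below every member's group median.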
